A study of Homo sapiens with 2 samples.

Results

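The 10 genes described here drive and restrain the passage of cells from G1 into S phase. They are the D-type cyclin genes CCND2 and CCND3, the E-type cyclin genes CCNE1 and CCNE2, the kinase genes CDK2, CDK4 and CDK6, the inhibitor gene CDKN1B, the pocket protein gene RB1 and the transcription factor gene E2F1. They were taken by symbol from a table of 46425 gene symbols, where all 10 were found, and this list of names was drawn up with earlier results of these data known. RNA was sequenced from NK92, an established human natural killer (NK) cell line derived from aggressive NK cell leukemia, which was grown in a medium with 2% human serum. The comparison is between 2 dishes, made by an equal division of the cells after an 18 h pre-culture. PPMX-T003 was present at 10 µg/mL for 6 h in 1 dish and absent from the other. PPMX-T003 is an antibody that blocks transferrin receptor 1 (TfR1), through which cells take up iron. Poly(A) RNA was made into stranded libraries, 1 per dish, with 46766416 counts in the unexposed library and 43178462 in the exposed library. In the deposited table the libraries carry the times 0 h and 6 h, although by the methods each dish was kept for an equal time after the division. The library marked 0 h was taken as unexposed, so a difference in harvest time and the exposure cannot be told apart. With 1 library per condition there is no replicate check of any difference and no p-value is given.

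In G1, D-type cyclins that accumulate in response to growth signals activate CDK4 and CDK6, which phosphorylate the retinoblastoma protein RB. RB holds E2F transcription factors inactive until it is phosphorylated, and E2F then switches on the E-type cyclins, which activate CDK2, together with the enzymes of DNA replication. Inhibitors of the INK4 family bind CDK4 and CDK6, and inhibitors of the CIP/KIP family, such as p27 encoded by CDKN1B, restrain CDK2.

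The cell type named in the labels was first set beside its markers. All 12 NK cell markers had more than 3 counts in a library, and their summed level was 4472 CPM (counts scaled to a common library total) without and 4976 CPM with PPMX-T003, with IL2RB the most abundant. Of 8 T cell markers, 4 had more than 3 counts and CD3D, CD3G, CD5 and CD8B had 0 in both libraries. The T cell list summed to 518 CPM without and 564 CPM with the antibody, most of it CD3E. The 5 monocyte markers summed to 4.53 and 6.58 CPM, most of it CD68, with FCN1 at 0. The 4 erythroid markers had 0 counts. None of the 5 stromal or epithelial markers had more than 3 counts, and only KRT8 had any, 2 in the unexposed library. PAX5, a transcription factor of B cells, had 169 and 78 counts, a log2 fold change of -0.98 (95% counting interval -1.40 to -0.60). Of the 12 NK cell markers 9 were higher in the exposed library and 3 lower, NCAM1 (-0.083), KLRD1 (-0.046) and EOMES (-0.027). After the fit on GC content and length described below was removed, 10 were above 0 and 2 below, with GZMB going from 0.27 to 0.18 and NKG7 from 0.16 to 0.0053. The part of these markers in the differences below was not tested.

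**Figure D1:**
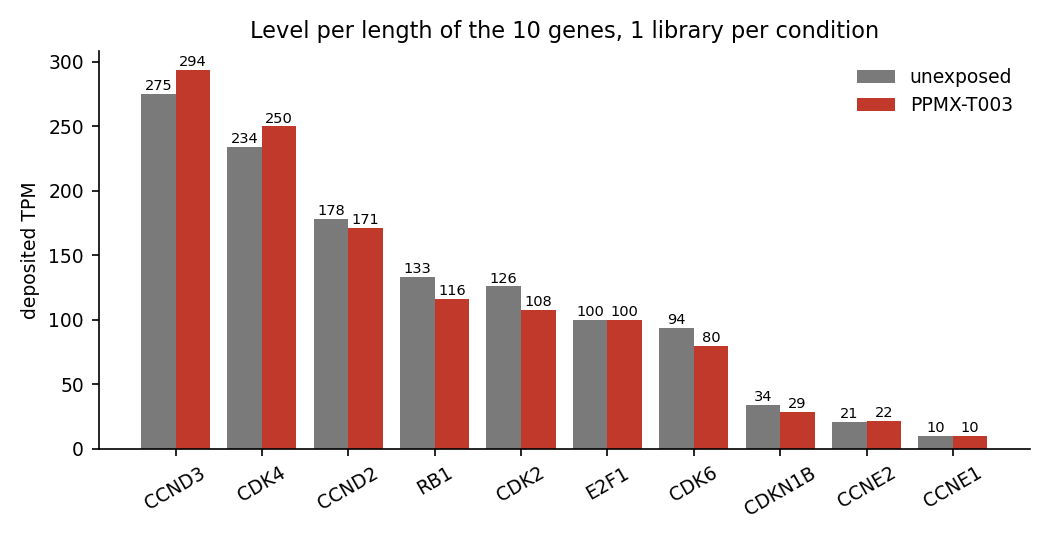
Deposited TPM, a level scaled for transcript length and depth, of the 10 genes in the unexposed library (grey) and the library exposed to PPMX-T003 (red), 1 library each, with the value above each bar. CCND3 is highest, at 275 and 294, and CCNE1 lowest, at 10 in both.

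All 10 genes were expressed, and their order by TPM, a level per transcript length, was the same in both libraries. From the highest to the lowest it ran CCND3, CDK4, CCND2, RB1, CDK2, E2F1, CDK6, CDKN1B, CCNE2 and CCNE1. CCND3 was exceeded by 620 genes of the table in the unexposed library and by 565 in the exposed library, and CCNE1 by 7946 and 7826. The step from RB1 to CDK2 was smaller in both libraries than the difference of either gene between the libraries, so this pair cannot be ordered firmly. The step from E2F1 to CDK6 in the unexposed library and that from CDK2 to E2F1 in the exposed library were likewise smaller than the differences of CDK6 and CDK2 between the libraries. The D-type cyclins and CDK4 thus lay at the upper end, and the E-type cyclins and CDKN1B at the lower end.

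No gene of the 10 differed by 1.2-fold or more as measured, and 1, CCNE2 (0.27), did after the fit on GC content and length described below was removed. Fold changes were computed on the log2 CPM scale, as exposed minus unexposed, where 1.2-fold is 0.26. Of all 13665 genes that reached 20 counts over both libraries, 12.2% were higher by 1.2-fold or more and 12.4% lower. With the fit removed, 1004 of the 12092 genes of known GC content were higher by as much and 1161 lower. Low counts widen this spread, and 9 of the 10 genes had at least 1000 counts. Among the 8359 genes with at least 1000 counts, the shares were 2.79% higher and 5.11% lower, and the central 95% of log2 fold changes ran from -0.33 to 0.27. With the fit removed this range was -0.26 to 0.23, and CCNE2 lay above it. The median of the 10 genes was 0.025, with 5 above 0 and 5 below (6 and 4 with upper-quartile scaling), against -0.0020 over all genes tested. On the deposited TPM it was -0.029, with 3 above 0 and 5 below, against -0.055 over genes with at least 1000 counts. At 1.1-fold, 3 of the 10 were higher (CDK4, CCNE2 and CCND3), where 15.2% of genes with at least 1000 counts were, and 4 lower (CDK6, CDK2, CDKN1B and RB1), where 20.1% were. The 95% counting interval lay above 0 for 4 of the 9 well-counted genes and below 0 for another 4, against 27.8% and 32.1% of all genes with at least 1000 counts. This interval covers counting error only and compares the libraries, not the conditions. In RNA from whole dishes, fewer cells in a phase of the cycle and less RNA per cell cannot be told apart.

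**Figure D2:**
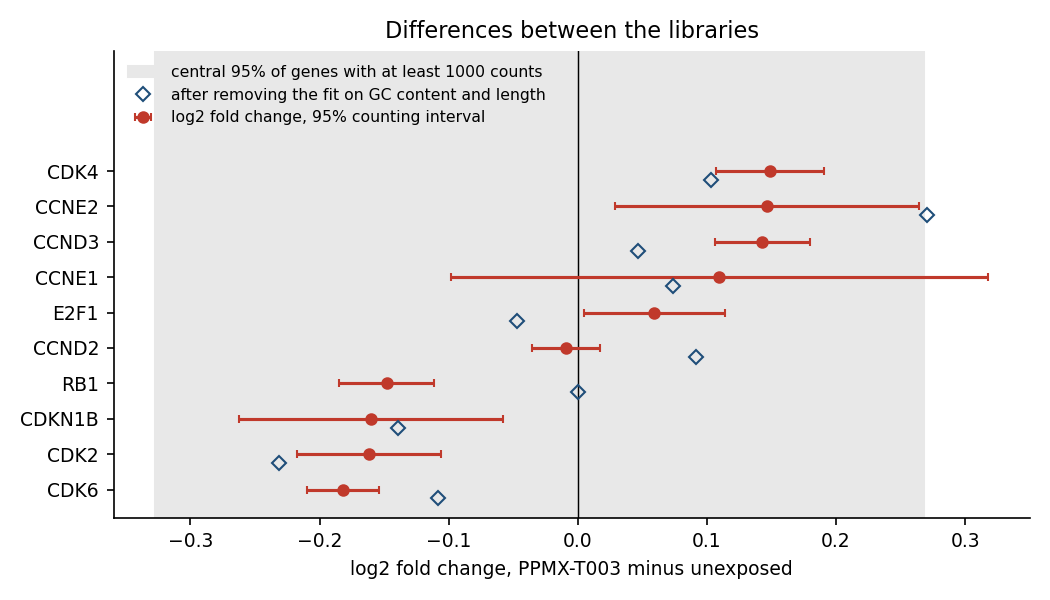
Log2 fold change (exposed minus unexposed, horizontal axis) of each of the 10 genes with its 95% counting interval (red), and the value after a fit on transcript GC content and length was removed (blue diamonds). The grey band is the central 95% of genes with at least 1000 counts as measured, from -0.33 to 0.27. It applies to the red points, and with the fit removed this range was -0.26 to 0.23, which is not drawn. CDK6 (-0.18) and CDK4 (0.15) are the ends of the range of the red points.

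**Figure D3:**
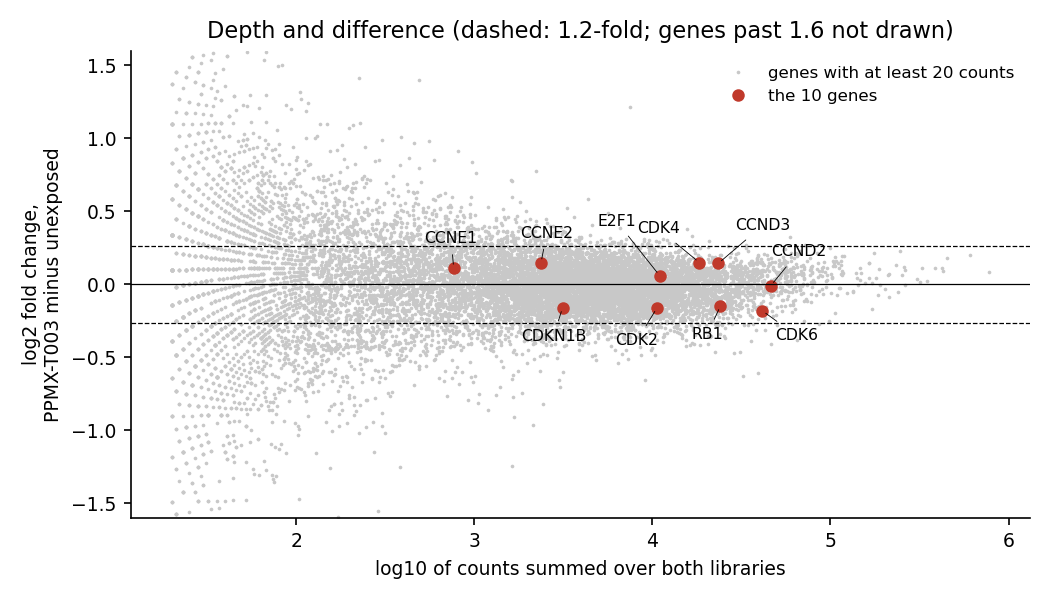
Log10 of the counts summed over both libraries (horizontal axis) and log2 fold change (vertical axis) of genes with at least 20 counts (grey) and of the 10 genes (red), with 1.2-fold as dashed lines. The 10 genes lie between the lines, and 102 genes past 1.6 in either direction are not drawn.

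CCND2 (NCBI Gene ID 894, chr12:4273762-4305353) and CCND3 (896, chr6:41934933-42050035) encode cyclins D2 and D3, the regulatory subunits of CDK4 and CDK6. Positions here and below are those of RefSeq on GRCh38.p14. The counts of CCND2 were 24138 without and 22113 with the antibody, at a TPM of 178 and 171. Its log2 fold change was -0.0092 (95% counting interval -0.036 to 0.017), a narrow interval that holds 0. CCND3 had 11620 and 11830 counts, at a TPM of 275 and 294. This is a log2 fold change of 0.14 (0.11 to 0.18), higher in the exposed library beyond counting error. After the fit on GC content and length described below was removed, CCND3 was at 0.047 and CCND2 at 0.091. CCND1, which encodes cyclin D1, had 0 counts in both libraries, so that the D-type cyclin transcripts of these cells were those of D2 and D3. CCND3 held 60.7% of the summed TPM of the family without and 63.2% with PPMX-T003, while that sum went from 453 to 465. The odds of a read coming from CCND3 and not from CCND2 were 1.11 times as high in the exposed library (exact 95% interval 1.08 to 1.15), a ratio that no scaling between libraries affects. The GC content and length of the transcripts do bear on it in the fit described below. They were 59.7% and 2066 bases for CCND3 and 45.5% and 6480 bases for CCND2.

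CCNE1 (898, chr19:29811991-29824312) and CCNE2 (9134) encode cyclins E1 and E2, which activate CDK2 at the start of S phase. CCNE1 had 384 and 382 counts, at a TPM of 10 in both libraries. Its log2 fold change of 0.11 had an interval from -0.098 to 0.32, so that no difference was detectable at this depth. CCNE2 had 1172 and 1196 counts, at a TPM of 21 and 22. CCNE2 was thus at 0.15 on the log2 scale (0.029 to 0.26), higher in the exposed library beyond counting error. After the fit on GC content and length described below was removed, CCNE2 was at 0.27. Its exons share 1629 bases with those of INTS8 on the opposite strand, and whether the counting used strand is not given in the sources used here. INTS8 had 3207 and 2583 counts, a log2 fold change of -0.19, which is the other direction from that of CCNE2. CCNE2 held 67.7% of the summed E-type TPM without and 68.8% with the antibody. The odds ratio of CCNE2 against CCNE1 was 1.03 (0.869 to 1.21), and its interval holds 1, so no shift between the E-type cyclins was detectable.

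CDK4 (1019, chr12:57747727-57752310) and CDK6 (1021, chr7:92604921-92836573) encode the catalytic partners of the D-type cyclins. The 250 bases before the start of CDK4 in RefSeq (GRCh38.p14, minus strand, chr12:57752311-57752560) are shown because the kinases of this pair lay on opposite sides of 0. CACGTG, the E-box word bound by MYC among other factors, is in capitals.
CDK4: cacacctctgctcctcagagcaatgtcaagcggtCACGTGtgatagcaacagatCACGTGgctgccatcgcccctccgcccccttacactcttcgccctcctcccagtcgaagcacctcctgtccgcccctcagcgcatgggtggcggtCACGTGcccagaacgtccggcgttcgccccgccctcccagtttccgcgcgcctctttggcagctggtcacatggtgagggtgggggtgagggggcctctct
The word occurs 3 times in this stretch, starting at -216, -196 and -101, where -1 is the base before the start, and reads the same on both strands. Of 35116 stretches of this length in the table, 6.34% hold it. Stretches were listed for 7 of the 10 genes, 10 in all, and outside CDK4 none of them held the word. No stretch was listed for CCND2, CDK2 and CCNE2, which were not searched. The stretch listed for RB1 (chr13:48476200-48476449) and all 3 listed for CCND3 (the outermost at chr6:42048689-42048938) lie inside the genes, so the starts of these whole genes were not searched. A match is a description of the letters and not evidence of binding. This stretch and this word were chosen after the fold changes were seen, and their part in the difference was not tested.

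The counts of CDK4 were 9086 without and 9287 with the antibody, at a TPM of 234 and 250. Its log2 fold change was 0.15 (0.11 to 0.19), and 86.9% of genes with at least 1000 counts had a lower one. TSPAN31 shares 1369 bases of exon with CDK4 on the opposite strand and had 457 and 333 counts. CDK6 had 22874 and 18592 counts, at a TPM of 94 and 80. Its log2 fold change was -0.18 (-0.21 to -0.15), and 12.9% of genes with at least 1000 counts had a lower one. The kinases of the D-type cyclins therefore differed in opposite directions, and their summed TPM was 328 without and 330 with the antibody. CDK4 held 71.3% of that sum in the unexposed library and 75.8% in the exposed library. Since TPM were rounded to whole numbers, these shares can lie anywhere between 71.2% and 71.5% and between 75.6% and 75.9%. The odds ratio of CDK4 against CDK6 was 1.26 (1.21 to 1.30), and its interval leaves out 1. After the fit on GC content and length described below was removed, CDK4 was at 0.10 and CDK6 at -0.11. Their difference in log2 fold change was then 0.21, against 0.33 as measured.

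CDK2 (1017, chr12:55966830-55972789) encodes the kinase that works with cyclins E and A. It had 5819 and 4796 counts, at a TPM of 126 and 108. Its log2 fold change was -0.16 (-0.22 to -0.11), lower in the exposed library beyond counting error. CDKN1B (1027, chr12:12717368-12722369) encodes p27, an inhibitor of cyclin-CDK2 complexes. It had 1715 and 1415 counts, at a TPM of 34 and 29. The log2 fold change of CDKN1B was -0.16 (-0.26 to -0.058), so the kinase and its inhibitor were both lower, at -0.23 and -0.14 after the fit on GC content and length described below was removed. Of the other CIP/KIP genes, CDKN1A had 0 and 2 counts and CDKN1C 0 in both libraries, so that CDKN1B held the whole TPM of this family in both. Along chromosome 12 lie 4 of the 10 genes, and in these libraries CDK4 was higher, CDK2 and CDKN1B were lower and CCND2 was near 0.

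RB1 (5925, chr13:48303751-48481890) encodes RB, the substrate of the G1 kinases. Its counts were 13162 without and 10952 with the antibody, at a TPM of 133 and 116. RB1 was thus lower in the exposed library, by a log2 fold change of -0.15 (-0.18 to -0.11). RB1 held 67.5% of the summed TPM of RB1, RBL1 and RBL2 in the unexposed library and 67.8% in the exposed library. All 3 pocket protein genes were lower, between -0.20 and -0.12 on the log2 scale with intervals below 0, and their summed TPM went from 197 to 171. RB1 therefore held nearly the same share of a family that was lower as a whole, but after the fit on GC content and length described below was removed RB1 was at 0.00020 and the family median at -0.0033. RBL2 was then still lower, at -0.096.

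E2F1 (1869, chr20:33675477-33686385) encodes a transcription factor that RB holds inactive and that acts on its own promoter as well as on replication genes. The 250 bases before its start in RefSeq (GRCh38.p14, minus strand, chr20:33686386-33686635) are shown because of this loop. Capitals mark E2F words, which were searched as TTTCCCGC, TTTCGCGC, TTTGCCGC and TTTGGCGC on both strands.
E2F1: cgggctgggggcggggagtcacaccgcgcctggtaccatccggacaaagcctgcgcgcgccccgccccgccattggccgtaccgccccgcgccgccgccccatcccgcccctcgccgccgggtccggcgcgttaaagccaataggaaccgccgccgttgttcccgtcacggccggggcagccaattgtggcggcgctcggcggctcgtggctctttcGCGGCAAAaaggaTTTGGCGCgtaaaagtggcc
GCGGCAAA, the reverse complement of TTTGCCGC, starts at -33 and TTTGGCGC at -20. Such words are found in 2.79% of the 35116 stretches, and in none of the stretches listed for the other genes described here. Of these, the stretches of RB1 and CCND3 lie inside the genes, and CCND2, CDK2 and CCNE2 had no stretch listed. E2F1 had 5601 and 5381 counts, at a TPM of 100 in both libraries. E2F1 was at 0.059 on the log2 scale (interval 0.0052 to 0.11), the smallest difference among those of the 10 genes whose interval leaves out 0. It was instead at -0.047 after the fit on GC content and length described below was removed. On the deposited TPM it was at 0, where the median of genes with at least 1000 counts was -0.055. E2F1 held 18.7% of the summed TPM of the 8 E2F genes without and 18.6% with PPMX-T003. E2F4, which mainly represses in resting cells, held 38.1% and 42.1%, the largest share in each library.

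Across the transcriptome the differences between the libraries followed the GC content of the transcripts, and this bears on each of the 10 genes. Among genes with at least 1000 counts, the median log2 fold change was -0.13 in the decile with the lowest GC content (up to 39.0%) and 0.11 in the decile with the highest (from 60.9%). A robust fit of the fold changes on GC content and length was therefore removed. Its slopes were 0.0083 per percent of GC content and -0.048 per doubling of length, so longer transcripts had lower fitted values. The parts of GC content and of length in the shifts given here were not separated. RB1, with a GC content of 37.3%, went from -0.15 to 0.00020 when the fit was removed. E2F1, with 62.5%, went from 0.059 to -0.047, and CCND3, with 59.7%, from 0.14 to 0.047. The medians of the GC deciles that hold these 3 genes were -0.13, 0.11 and 0.087, on the same side of 0 as the genes themselves. CCNE2 had the lowest GC content of the 10 genes, 35.4%, in a GC decile with a median of -0.13, and yet was higher. Its value after the fit was removed was 0.27, which is the only one past 1.2-fold in this setting. CDK2, with 52.3%, lay in a GC decile with a median of 0.035 and yet was lower, and its value became -0.23. CDK4 (0.10), CDK6 (-0.11) and CDKN1B (-0.14) kept their directions. CCND2 went from -0.0092 to 0.091, out of its counting interval, and CCNE1 was at 0.074. The difference in log2 fold change between CDK4 and CDK6 was 0.33 as measured and 0.21 after the fit was removed. That between CCND3 and CCND2 was 0.15 and then -0.045, so the order of the D-type cyclins turned. Between CCNE2 and CCNE1 it was 0.037 and then 0.20. The median protein-coding transcript was also used in the fit, a setting chosen after seeing the data. These differences were then 0.16, 0.043 and 0.17 in the same order, so the D-type cyclins did not turn. The cause of the trend was not tested.

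The wider G1/S machinery around the 10 genes was described by 13 lists, which hold 96 further genes. Of these, 91 had at least 20 counts, with 51 higher and 40 lower (59 and 32 after the fit on GC content and length was removed) and a median log2 fold change of 0.013. Over all 13665 genes tested, 6785 were higher and 6880 lower (6022 and 6070 after the fit was removed). By 1.2-fold or more, 5 of the 91 list genes were higher and 0 lower, against 12.2% and 12.4% of all genes with at least 20 counts. Of the 86 with at least 1000 counts, 2 were higher by as much and 0 lower, against 2.79% and 5.11% of all genes with such counts. The 3 INK4 inhibitors with enough counts were all higher, with a median of 0.25. CDKN2A, which encodes p16 and, from an alternative reading frame, ARF, was the most abundant at a TPM of 351 and 403, above the TPM of every one of the 10 genes. The summed TPM of the INK4 genes went from 435 to 495, beside the nearly equal sums of CDK4 and CDK6 given above. CDKN2D, which encodes p19, had 398 and 557 counts, a log2 fold change of 0.60 (0.41 to 0.79). CDKN2B had 0 counts in both libraries. After the fit on GC content and length was removed, the median of the INK4 list was 0.12, with all 3 still above 0.

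Among the cyclin and kinase lists, medians were 0.067 for the D-type cyclins, 0.11 for the E-type and A-type cyclins, where CCNA1 had 2 and 0 counts, and -0.0064 for the G1 and S phase CDKs, or -0.16 with genes of at least 200 counts, which leaves out CDK3. CDK3 had 3 and 17 counts, a log2 fold change of 2.01 with an interval from 0.83 to 5.03. It shares 1644 bases of exon on the same strand with the readthrough gene TEN1-CDK3, which had 457 and 247 counts, so reads were divided between them by an estimate. Summed over both genes the locus had 460 and 264 counts, a log2 fold change of -0.68 (-0.91 to -0.46), the other direction from CDK3 alone. The CIP/KIP list, of which CDKN1B alone was tested, was at -0.16 and the pocket proteins at -0.15, and the latter median was -0.0033 after the fit was removed.

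The 10 E2F and DP factors had a median of 0.0080, with 6 higher and 4 lower, and of -0.015 after the fit was removed. TFDP1, the dimer partner of E2F1, was the most abundant, at a TPM of 429 and 414. The 45 E2F target genes of G1/S had a median of 0.017, with 25 higher and 20 lower (31 and 14 after the fit was removed). CDT1, which licenses replication origins, was the only one past 1.2-fold, with 3112 and 3517 counts and a log2 fold change of 0.29 (0.22 to 0.36). MCM7, a subunit of the replicative helicase, had the highest TPM in this list, 661 and 678. E2F1 and the median of this list thus both lay close to 0, beside a median of -0.0098 for all genes with at least 1000 counts.

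For the regulators of CDK activity, medians after the fit was removed are in brackets. The 7 genes of CDK activation had a median of 0.018 (0.025), and HSP90AB1, the chaperone that with CDC37 folds CDK4, had the highest TPM, 3108 and 3033. CDC25B, a phosphatase that activates CDKs, had 6310 and 7039 counts and a log2 fold change of 0.27 (0.23 to 0.32). The 2 CDK tyrosine kinases had a median of -0.057 (-0.11, with both below 0), and the more abundant, PKMYT1, a TPM of 106 in both libraries. The 9 genes of SCF and APC/C turnover had a median of -0.0021 (0.0072), with CKS1B the highest at a TPM of 313 and 312. Among them are SCF genes through which p27 and the E-type cyclins are degraded. The 6 genes of the MuvB core and B-MYB had a median of 0.010 (0.026), and MYBL2 the highest TPM, 184 and 189. The 6 inputs to D-type cyclins and p27 had a median of 0.064 (0.0017). MYC, which acts on the genes of D-type cyclins and CDK4, had the highest TPM among them, 178 and 194. FOXO1, a transcription factor that acts on CDKN1B, had 73 and 119 counts and a log2 fold change of 0.80 (0.39 to 1.26). Of the list genes past 1.2-fold other than CDK3, CDC25B (0.21) and CDT1 (0.18) were no longer past it after the fit on GC content and length was removed, while CDKN2D (0.46) and FOXO1 (0.89) were.

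**Figure D4:**
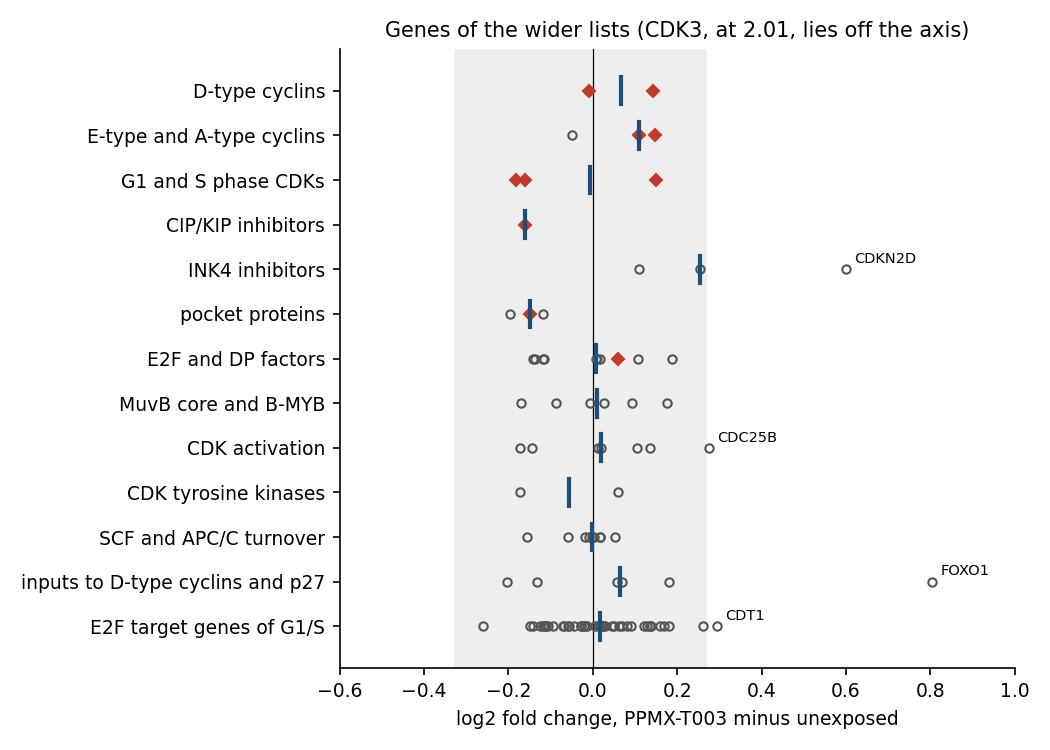
Log2 fold change (exposed minus unexposed, horizontal axis) of each gene with at least 20 counts in the 13 lists (rows), with the 10 genes as red diamonds, other genes as circles and list medians as blue bars. The grey band is the central 95% of genes with at least 1000 counts, and CDKN2D (0.60) and FOXO1 (0.80) lie farthest outside it apart from CDK3, which is off the axis.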

How the data were processed

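RNA of 1 unexposed and 1 exposed dish of NK92 cells was compared. Per the submitters' processing notes, Trimmomatic 0.38, HISAT2 2.2.0, StringTie 2.1.3b and edgeR 3.17 were used, with build hg38. The authors deposited the number of reads per gene as whole numbers, written with commas in the larger values, which were removed; because of the commas their unit was recorded as general and not as plain counts. The deposited FPKM and TPM are a score here, since both had been rounded to whole numbers. StringTie derives reads of a gene from coverage, so reads in exons shared by genes are divided by an estimate. Rows with the same symbol (3 of 46427) were summed.

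Libraries were scaled by TMM, trimming 30% of the log ratios and 5% of the mean levels, and 2 was the prior count for log2 CPM. The tools were Python 3.11.15, statsmodels 0.14.6, scipy 1.17.1, pandas 2.3.3, numpy 2.4.6 and matplotlib 3.10.9, the steps were tested on simulated data, and no count model was fitted. Each counting interval is the 95% Clopper-Pearson interval of the share of a gene's reads in the exposed library, expressed as a log2 ratio, and paralogs were compared by the conditional odds ratio of their counts. Genes with no more than 3 counts were taken as not detected. GC content and length were medians over GENCODE release 29 transcripts paired with the deposited RefSeq accessions, or over protein-coding transcripts where none was paired. They were known for all 10 genes and 88.5% of genes tested, and the robust fit used 9926 genes with at least 200 counts. Exon sharing was read from the same release.

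Besides the 10 genes, those named are list genes past 1.2-fold, the highest in TPM of each list, genes with no more than 3 counts in both libraries, and paralogs and exon-sharing neighbours of the 10 genes. INTS8, TSPAN31, TEN1-CDK3 and the single markers were named after their values were seen. The stretch before CDK4 and the E-box word were likewise chosen after the values were seen. The 10 genes and the lists were chosen with earlier results of these data known. The alternatives were other scalings, prior counts, thresholds and count filters, the deposited TPM and FPKM, the fit on GC content and length, and counts per kilobase for shares. The summed level of 1 list of cell type markers is not reported here.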

Additional observations from a re-analysis of the deposited data

How the results depend on the processing

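No paired analysis was possible because there was 1 library of each kind, which also leaves no replicate to omit. Under upper-quartile, median-of-ratios and library size scaling and prior counts of 0.5 and 5, all 50 fold changes of the 10 genes stayed within their counting intervals and moved by at most 0.012, though CCND2 lay above 0 with the upper quartile. With a threshold of 1.1-fold, 3 of the 10 genes were higher and 4 lower, which follows from the threshold. At 2-fold, 0 were higher and 0 lower.

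With the fit on GC content and length removed, 1 gene, CCNE2 (0.27), was at least 1.2-fold higher. Of 12092 genes in that setting, 1004 were higher by as much and 1161 lower. E2F1 (-0.047), RB1 (0.00020) and CCND2 (0.091) changed sign. CCND3 was at 0.047, CDK2 at -0.23, CDK4 at 0.10 and CDK6 at -0.11, the INK4 median at 0.12 and the pocket protein median at -0.0033. With the median protein-coding transcript in the fit, chosen after seeing the data, 1 gene was again past 1.2-fold, CCNE2 (0.28). Among all genes with a value in that setting, 1060 were higher by as much and 1150 lower. E2F1 was at -0.031, RB1 at -0.015, CCND2 at 0.018, CCND3 at 0.061, CDK4 at 0.053 and CDK6 at -0.11, the INK4 median at 0.12 and the pocket protein median at -0.015. The difference of CCND3 from CCND2 was then 0.043, so its direction depends on the transcripts used. The cause of these shifts was not tested beyond the fit itself.

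On the deposited TPM with a pseudocount of 1, the median of genes with at least 1000 counts was -0.055, and 34.4% of the genes past 1.2-fold were higher, against 49.4% with the counts. There the median of the 10 genes was -0.029, with CCND2 at -0.058, CCND3 at 0.096, CDK2 at -0.22, CDK4 at 0.095, CDK6 at -0.23, E2F1 at 0 and RB1 at -0.20. List medians were 0.019 for the D-type cyclins, -0.063 for the G1 and S phase CDKs and -0.037 for the E2F targets. With FPKM, CCNE2 was at 0 and the G1 and S phase CDKs at -0.085, where rounding to whole numbers limits both. With at least 200 counts, which leaves out CDK3, the latter median was -0.16. With at least 1 count, which adds CDKN1A at 0 and 2 counts, the CIP/KIP median was 0.44. The other 133 of 143 list medians moved by less than the counting intervals of their genes.

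By counts per kilobase of the longest coding transcript, CCND3 held 56.6% of the D-type cyclins without and 59.2% with PPMX-T003, CCNE2 65.2% and 65.8% of the E-type cyclins, and CDK4 69.0% and 73.6% of CDK4 and CDK6. These shares depend on the length used, which is the same for both libraries.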
